A study of Homo sapiens with 26 samples.

Results

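The hypoxia and glucose metabolism genes described here are ANGPTL4, VEGFA, ADM, SLC2A1, HK2, PFKFB3, LDHA, PDK1, BNIP3 and CA9, 10 of the 63086 genes in the count files. They were taken as a named list and matched by Ensembl identifier. The list was drawn up with results of these data in view. ANGPTL4 was selected on its measured values, because it moved in opposite directions with arsenite in WT cells and in the populations with a glutamate substitution, so every ANGPTL4 value in those populations is a description and carries no test. Unless ANGPTL4 is named, counts of members below are over the 8 other members that were tested.

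Cells adapt to low oxygen through the hypoxia-inducible factors, heterodimers of an oxygen-labile alpha subunit such as HIF-1 alpha (HIF1A) with ARNT. When oxygen is present, prolyl hydroxylases of the EGLN family mark the alpha subunit for the VHL ubiquitin ligase. When it is scarce, the dimer binds short ACGTG or GCGTG cores in hypoxia response elements and raises genes for glucose uptake, glycolysis, lactate production, angiogenesis and pH control. Arsenite, which reacts with protein thiols and leads to oxidative stress, is widely used to provoke proteotoxic stress and stress granules. Many tumour lines, colorectal ones included, run glycolysis also in air. None of the groups was labelled as kept at low oxygen.

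All libraries came from HCT116, a human colorectal carcinoma line carrying Tet-OsTIR1. The 4 engineered populations lack IGF2BP2 and IGF2BP3 by Cas9 knockout, which was made in single-cell clones. Each carries lentiviral mCherry-IGF2BP1, an RNA-binding protein fused to a red fluorescent tag, as WT, S181E, Y396E or RQ. S181E and Y396E put glutamate, a mimic of phosphate, at a phosphorylation site in a disordered linker, and RQ swaps several linker arginines for glutamine. Each construct is represented by 1 population sorted through a narrow mCherry gate, so the construct and the population that carries it cannot be told apart. Cells received 500 µM sodium arsenite for 2 h or PBS, with 3 libraries in each of the 8 groups from dishes plated independently, and parental HCT116 cells gave 1 library per condition. The poly(A) RNA was taken from clarified lysate.

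Total counts ranged from 22508145 to 50834401 per library. The library Y396E arsenite replicate 3 held counts for 13897 genes, against at least 20850 in each of the other 23 engineered libraries. IGF2BP1 measured 0.35 and 0.65 CPM (counts divided by the library's TMM-scaled total in megareads) in the parental libraries and 10.6 to 47.95 CPM in the engineered ones, and stood above WT at 1.54 times its level in S181E control cells, 1.36 times in Y396E control cells and 1.48 to 1.62 times in the 3 mutant populations after arsenite, most in RQ (in RQ control cells it was 1.19 times, not called). The epithelial markers EPCAM, KRT8, KRT18, CDH1, CLDN3 and CLDN4 were present, with EPCAM at 332 to 442 CPM. In control cells 4 of these 6 were called lower than in WT in both S181E and Y396E and KRT8 was called higher, and the differences in S181E were -1.44 for CLDN4, -1.28 for CLDN3, -0.46 for CDH1, -0.29 for EPCAM and 0.36 for KRT8 on the log2 scale. Of all tested genes 15.4% were called lower and 15.7% higher in S181E, and 14.2% and 14.5% in Y396E. None of the 6 was called in RQ, where 1.43% of all tested genes were. The intestinal markers LGALS4 and VIL1 were near 0 throughout. Of 8 blood, stromal and endothelial markers, COL1A1 reached 7.52 to 10.98 CPM in the group means and the others stayed below 1. The share of counts from mitochondrial genes was 21.09% to 27.91% in WT and RQ control cells and 11.66% to 17.15% in S181E and Y396E control cells. It was 7.55% to 13.53% after arsenite.

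The promoters of the members were read from RefSeq (GRCh38.p14) as the 250 bases before the start of each gene. An entry was found for 9 of the 10 members, all except VEGFA. The cores ACGTG and GCGTG were searched on both strands, so that the palindrome CACGTG counts as 2 overlapping matches. At least 1 match was found in 43.1% of the 27305 promoters searched, and in 7 of the 9 member promoters. SLC2A1 and PDK1 had no match in this window, and the RefSeq start of PDK1 lies upstream of the start used in the count files. The promoters of 4 genes are shown because they belong to members that moved differently with arsenite: ANGPTL4 with its opposite directions, HK2 and LDHA, which rose, and BNIP3, which fell. Capitals mark the matches on either strand, each sequence runs 5′ to 3′ on the strand of its gene, and bases inside the gene as annotated in the count files are left out. The windows are chr19:8363905-8364154 (+) for ANGPTL4, chr2:74833877-74834126 (+) for HK2, chr11:18394313-18394561 (+) for LDHA and chr10:131981968-131982173 (-) for BNIP3.
ANGPTL4: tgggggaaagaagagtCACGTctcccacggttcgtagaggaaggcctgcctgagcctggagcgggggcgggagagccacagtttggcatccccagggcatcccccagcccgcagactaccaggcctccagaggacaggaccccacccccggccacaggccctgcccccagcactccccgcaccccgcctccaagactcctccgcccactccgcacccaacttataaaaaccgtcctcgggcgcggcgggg
HK2: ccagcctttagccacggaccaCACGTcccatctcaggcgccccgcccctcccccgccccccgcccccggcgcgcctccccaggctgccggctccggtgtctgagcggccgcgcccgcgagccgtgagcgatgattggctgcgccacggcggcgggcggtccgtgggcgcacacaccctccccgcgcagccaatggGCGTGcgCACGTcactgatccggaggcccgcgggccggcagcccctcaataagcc
LDHA: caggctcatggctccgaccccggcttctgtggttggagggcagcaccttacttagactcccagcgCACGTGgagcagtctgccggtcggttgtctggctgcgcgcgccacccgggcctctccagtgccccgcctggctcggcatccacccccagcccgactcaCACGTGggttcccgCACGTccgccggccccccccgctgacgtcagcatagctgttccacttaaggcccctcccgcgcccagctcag
BNIP3: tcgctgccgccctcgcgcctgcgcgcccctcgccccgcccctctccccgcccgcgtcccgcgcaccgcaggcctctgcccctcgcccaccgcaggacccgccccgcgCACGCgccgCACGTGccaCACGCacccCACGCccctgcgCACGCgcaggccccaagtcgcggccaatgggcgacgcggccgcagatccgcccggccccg

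ANGPTL4 had 1 match, HK2 had 3, LDHA had 5 at 3 separate sites and BNIP3 had 6 at 5 separate sites. The number of matches did not order the members by their arsenite response, since BNIP3 had the most and its RNA fell in WT cells. These letters describe the windows and say nothing of whether a factor was bound there.

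Levels are given as CPM after TMM scaling over the tested genes, the protein-coding genes above 10 CPM in at least 12 of the 24 engineered libraries. A gene was called when the edgeR quasi-likelihood test gave a Benjamini-Hochberg adjusted p below 0.05 over all 9099 tested genes and the fold change exceeded 1.2, which is 0.263 on the log2 scale. The filter used CPM on the total of protein-coding counts, before TMM scaling. On that scale all members other than ANGPTL4 and CA9, 8 genes, passed 10 CPM in all 24 libraries. ANGPTL4 passed in 16, namely 6 control and 10 arsenite libraries. CA9 passed in none and was not tested. Per kilobase of exon, mean levels in WT control cells ran from LDHA at 241.9 CPM per kb and SLC2A1 at 34.4 through ADM at 21.8, PFKFB3 at 18.2, VEGFA at 14.4, BNIP3 at 12.7, ANGPTL4 at 7.64 and HK2 at 2.60 to PDK1 at 1.06 and CA9 at 0.036.

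**Figure D1:**
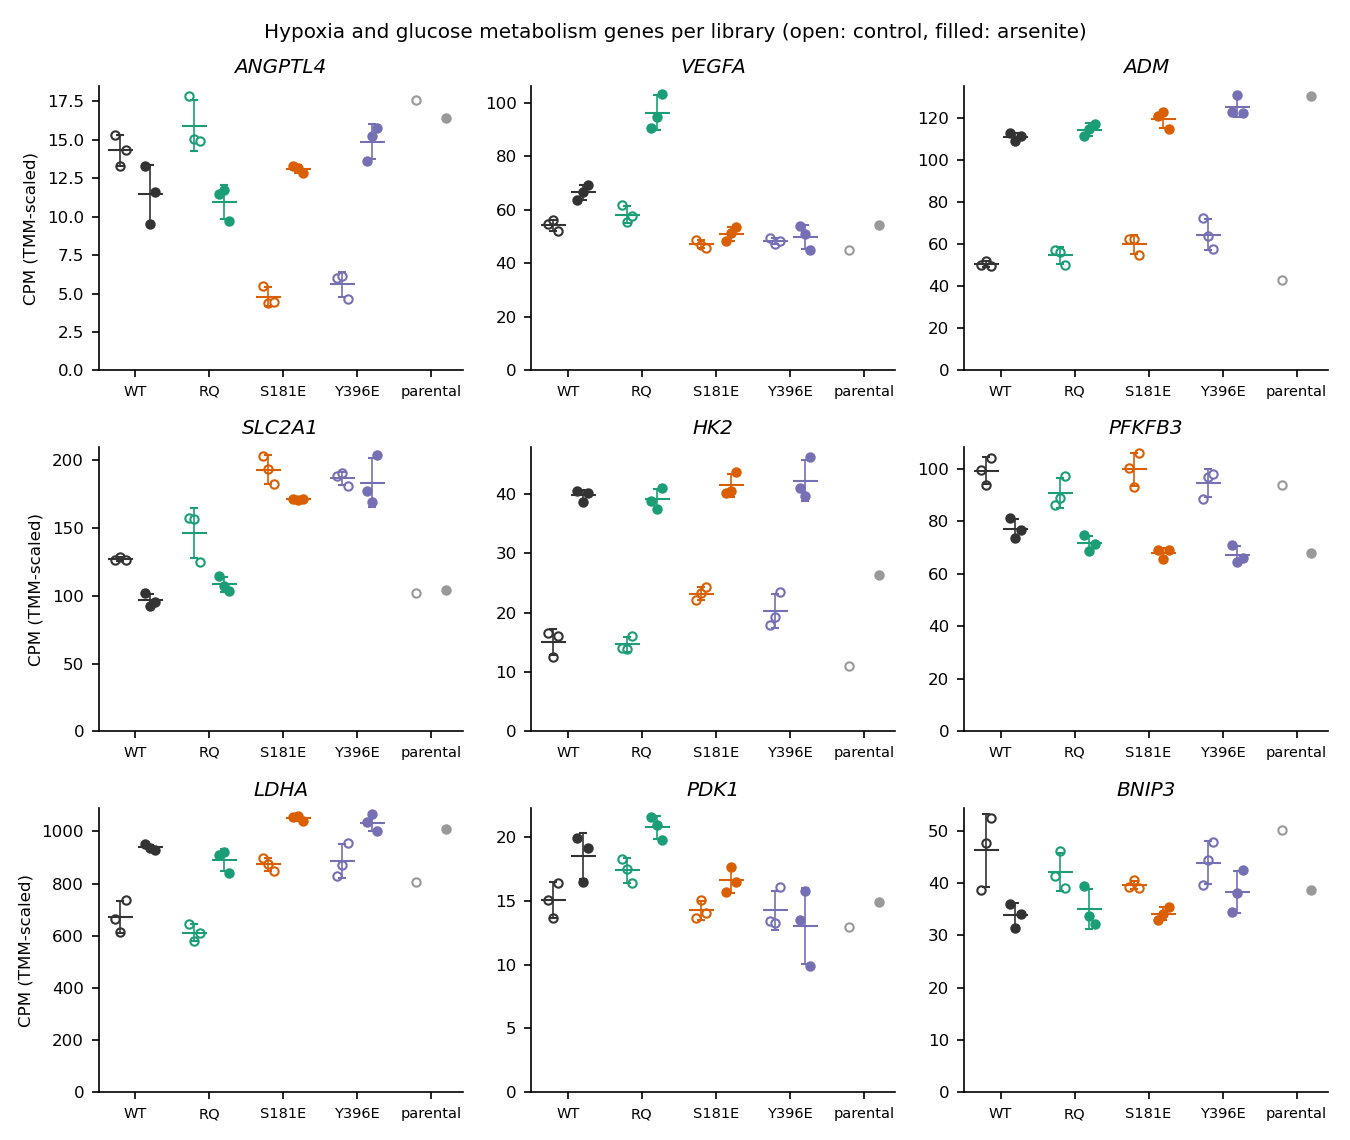
Level of the 9 tested members in each library, in TMM-scaled CPM on linear axes that start at 0, by population. Open points are control and filled points arsenite libraries, and bars give the mean and SD of the 3 libraries of a group (the parental cells have 1 library each). ANGPTL4 sits at 4.40 to 6.13 CPM in S181E and Y396E control cells and at 12.8 to 15.8 CPM after arsenite.

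ANGPTL4 encodes a secreted inhibitor of lipoprotein lipase that is also a target of PPAR factors. It was lower in S181E and Y396E control cells than in WT, and higher in both after arsenite than before, while it was lower after arsenite in WT. The WT control libraries held 15.3, 13.3 and 14.3 CPM and the WT arsenite libraries 13.3, 9.55 and 11.6 CPM. The 2 WT groups met at 13.3 CPM without overlapping. S181E cells held 5.52, 4.40 and 4.45 CPM in control and 13.3, 13.2 and 12.8 CPM in arsenite. Y396E cells held 6.03, 6.13 and 4.67 CPM in control and 13.6, 15.3 and 15.8 CPM in arsenite. In both glutamate populations every arsenite library lay above every control library by more than the range within a group.

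On the log2 scale the arsenite difference of ANGPTL4 was -0.33 in WT (SE 0.12), 1.45 in S181E (SE 0.13) and 1.42 in Y396E (SE 0.13). Scaling by library totals alone changed the WT value to -0.17, and leaving out WT arsenite replicate 2 changed it to -0.21. The differences from WT in control cells were -1.58 for S181E and -1.36 for Y396E, which are 2.99 and 2.57 times lower. After arsenite the differences from WT were 0.19 for S181E, where the libraries overlapped those of WT, and 0.38 for Y396E, where they did not, and without WT arsenite replicate 2 they were 0.07 and 0.26. The S181E value was 0.31 without WT arsenite replicate 1. These values chose the gene for the list and are not tested.

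The stated reason for that choice did not use RQ cells. The list was drawn up with results of these data in view, so the RQ test is not fully separate from it. Their control libraries held 17.8, 15.0 and 14.9 CPM of ANGPTL4 and their arsenite libraries 11.5, 11.8 and 9.72 CPM. The groups did not overlap, and ANGPTL4 fell in RQ cells with arsenite by 0.54 on the log2 scale (SE 0.12, adjusted p = 0.000305, edgeR quasi-likelihood test). Parental HCT116 cells, with 1 library per condition, held 17.6 CPM in control and 16.4 CPM in arsenite. Between the glutamate populations, ANGPTL4 in Y396E differed from S181E by 0.22 in control and by 0.19 in arsenite, values that are likewise given without a test.

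In order of mean level, ANGPTL4 stood at 15.9 ± 1.64 CPM in RQ control (SD, n = 3 here and below), 14.9 ± 1.15 in Y396E arsenite, 14.3 ± 0.99 in WT control, 13.1 ± 0.25 in S181E arsenite, 11.5 ± 1.88 in WT arsenite, 10.99 ± 1.10 in RQ arsenite, 5.61 ± 0.82 in Y396E control and 4.79 ± 0.63 in S181E control. Neighbours in this order overlapped except at the step from WT control to S181E arsenite, where the lowest and highest libraries both read 13.3 CPM, and at the step from RQ arsenite to Y396E control. The largest gap was the latter.

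Across the 24 engineered libraries the genes whose log2 CPM followed ANGPTL4 most closely were MERTK, a receptor tyrosine kinase for apoptotic cell uptake (Pearson r = 0.921), B3GNT2, an enzyme that extends poly-N-acetyllactosamine chains (0.898), HBEGF, an EGF receptor ligand (0.886), AHNAK, a giant scaffold protein (0.866), and SIAE, a sialic acid esterase (0.861). These r values are a description over libraries that share groups and treatments. MERTK had mean levels of 12.6 CPM in WT control, 4.24 in S181E control and 4.41 in Y396E control cells. After arsenite it had means of 10.5, 9.54 and 9.59 CPM in the same populations. MERTK was picked for following ANGPTL4, so its likeness in these groups was fixed by that choice. The parental libraries were outside the correlation. There MERTK held 5.17 CPM in control and 8.81 CPM in arsenite, where ANGPTL4 held 17.6 and 16.4 CPM. No other member was among these genes, and the correlation of ANGPTL4 with the other 8 tested members ran from -0.461 for PFKFB3 to 0.285 for ADM.

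Arsenite changed all 8 other tested members in WT cells, 5 upwards and 3 downwards, where 72.2% of all tested genes were called, 36.3% upwards and 35.9% downwards. In RQ cells 7 of the 8 were called (background 72.9%), in S181E cells 4 (65.3%) and in Y396E cells 3 (65.8%). Against these backgrounds the counts in WT and RQ are near what all genes showed. The median log2 difference of the 8 members was 0.29 for WT, 0.40 for RQ, 0.17 for S181E and 0.01 for Y396E, beside -0.01, -0.01, -0.03 and -0.03 over all tested genes. HK2, ADM and PFKFB3 were called with the same sign in all 4 populations. The comparisons within S181E and Y396E share no libraries with those in WT, and whether a member responded differently was tested as a difference between responses, given gene by gene below.

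**Figure D2:**
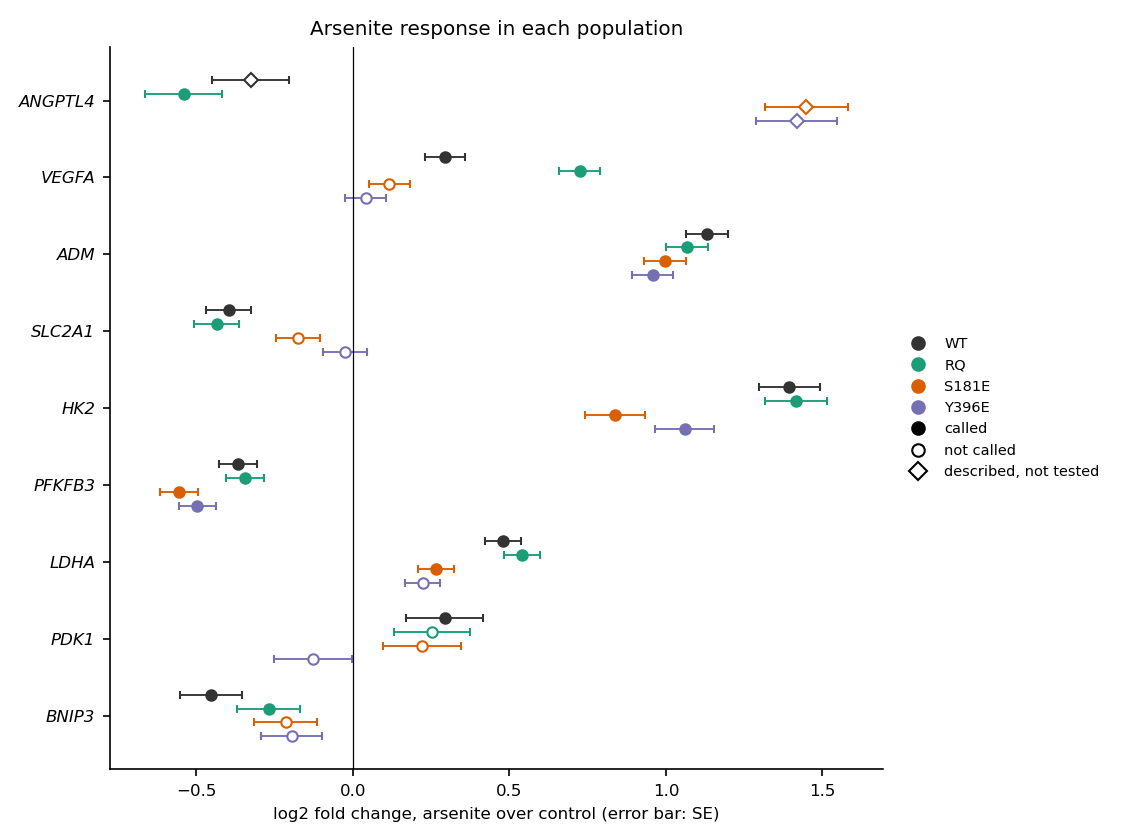
Log2 fold change of each tested member, arsenite over control, with its SE, in the 4 populations. Filled circles are called, open circles are not called, and diamonds are ANGPTL4 values described without a test. HK2 and ADM lie to the right in all 4 populations and PFKFB3 to the left, while ANGPTL4 lies at -0.33 in WT and at 1.45 in S181E.

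The differences of S181E, Y396E and RQ from WT share the WT libraries. In control cells S181E had 3 of the 8 members called against WT, all higher (background 31.1%, and 15.7% higher), and Y396E had 4, all higher (28.6%, and 14.5% higher). The members called in S181E were SLC2A1, HK2 and LDHA, and Y396E had ADM in addition. RQ had none called (1.43%), and none was called by DESeq2. There SLC2A1, LDHA and PFKFB3 had an unadjusted p below 0.05 in the edgeR test, with adjusted p of 0.163, 0.256 and 0.329. The share of all tested genes under that unadjusted limit was not computed, so nothing is read from it. The median difference of the 8 members was 0.12 for S181E and 0.14 for Y396E, beside 0.02 for all tested genes in both. The mitochondrial share of counts, the level of IGF2BP1 and the epithelial markers, all given above, also differed between the glutamate populations and WT, and their part in these differences was not tested. When libraries were scaled by totals alone, the median of all genes moved to 0.18 in S181E and 0.14 in Y396E, and the share of called genes that were higher moved from 50.4% to 83.6% and from 50.5% to 81.1%.

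After arsenite S181E differed from WT in 2 of the 8 members (background 13.7%), Y396E in 3 (21.7%) and RQ in 1 (1.52%). SLC2A1 was higher and VEGFA lower in both glutamate populations, PDK1 was also lower in Y396E, and VEGFA was higher in RQ. The arsenite response itself differed from that of WT in 1 of the 8 members for S181E (HK2, background 16.4%), 1 for Y396E (SLC2A1, 21.5%) and 1 for RQ (VEGFA, 0.22%). Y396E and S181E had no member called against each other in control or in arsenite, where the background was also 0%. DESeq2 likewise called none. In arsenite 1 member, PDK1, had an unadjusted p below 0.05, as had 15.1% of all tested genes. In control no member did, beside 3.18% of all tested genes. The 95% intervals of the 8 members between these populations spanned -0.40 to 0.35 in control and -0.60 to 0.37 in arsenite.

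**Figure D3:**
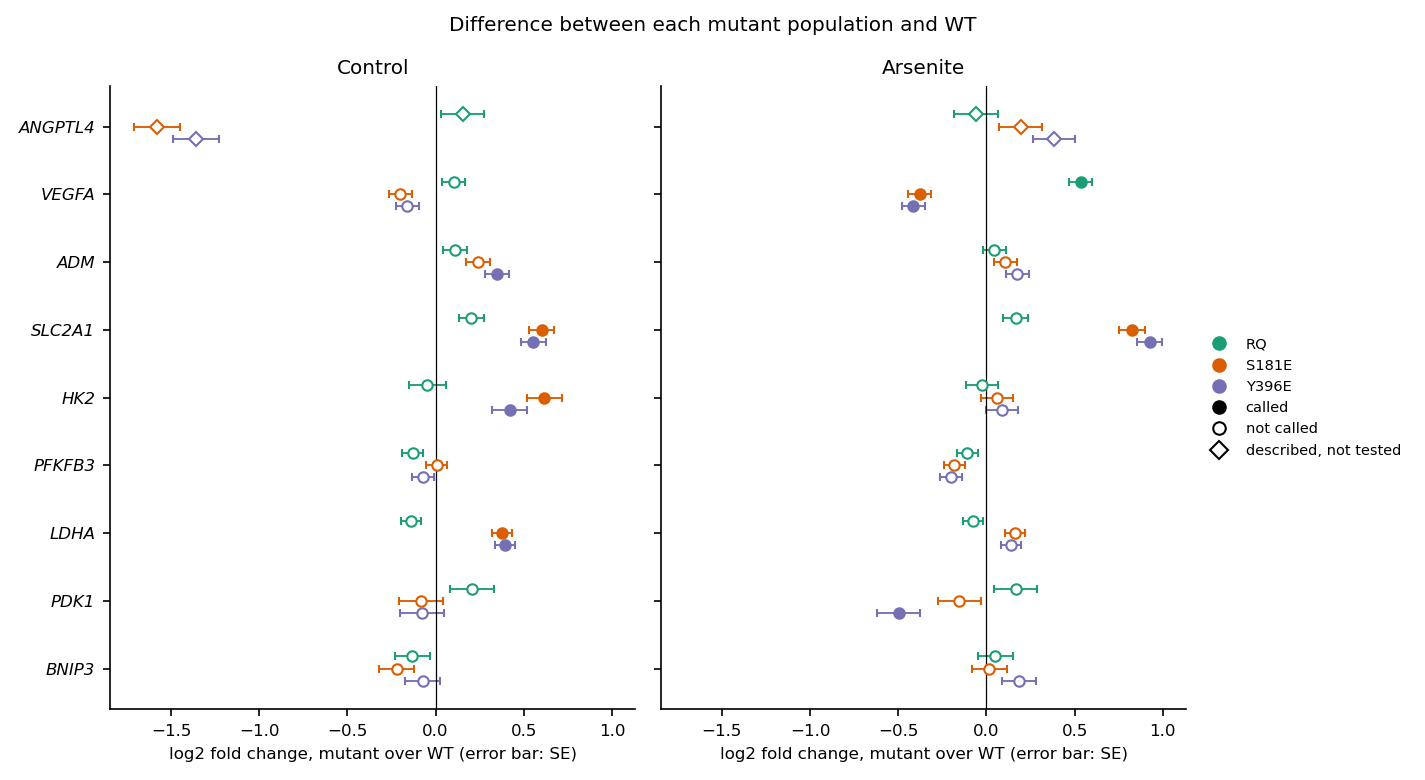
Log2 fold change of each tested member in S181E, Y396E and RQ over WT, with its SE, for control cells (left) and arsenite cells (right). Symbols are filled where called, open where not called, and diamonds mark ANGPTL4, described without a test. SLC2A1 lies to the right in both glutamate populations and both conditions, and VEGFA in arsenite lies to the left in these and to the right in RQ.

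VEGFA, the main growth factor for blood vessels, rose with arsenite in WT and most in RQ. The WT control libraries held 54.6, 56.2 and 52.0 CPM and the WT arsenite libraries 63.8, 66.6 and 69.2 CPM, without overlap. The rise was 0.29 on the log2 scale (SE 0.064, adjusted p = 0.000194). RQ cells went from 61.7, 55.4 and 57.7 CPM to 90.6, 94.7 and 103.4 CPM, a 1.65-fold rise (log2 0.72, SE 0.064, adjusted p = 1.68e-10). All 3 RQ arsenite libraries lay above every other library. IGF2BP1 was also highest against WT in these cells, and its part in the VEGFA level was not tested.

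In S181E cells VEGFA was at 48.9, 47.1 and 45.8 CPM in control and 48.3, 51.4 and 53.6 CPM in arsenite, and in Y396E cells at 49.6, 47.4 and 48.5 CPM and then 53.98, 50.9 and 45.1 CPM. Control and arsenite libraries overlapped in both, with differences of 0.12 (adjusted p = 0.108) and 0.04 (adjusted p = 0.564). After arsenite VEGFA was 1.30 times lower in S181E than in WT (log2 -0.38, SE 0.065, adjusted p = 9.45e-05) and 1.33 times lower in Y396E (-0.41, SE 0.064, adjusted p = 2.04e-05), whereas RQ was 1.45 times higher (0.53, SE 0.063, adjusted p = 4.6e-06). The response in RQ exceeded that in WT by 0.43 (SE 0.091, adjusted p = 0.0388). That call was lost in 22 of 32 alternative settings, among them RLE scaling (adjusted p = 0.0631), the replicate block (0.0513) and the fit without RQ arsenite replicate 3 (0.263). The response in Y396E was 0.25 smaller than in WT and was not called, with an adjusted p of 0.0444. It passed the fold threshold and was called with totals scaling (-0.36). The same held without WT arsenite replicate 1 (-0.28, adjusted p = 0.0459), Y396E arsenite replicate 1 (-0.31) or Y396E arsenite replicate 2 (-0.27).

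ADM, which encodes the vasodilator peptide adrenomedullin, rose with arsenite in all 4 populations. WT libraries went from 50.3, 52.2 and 49.7 CPM to 112.9, 109.2 and 111.3 CPM, a rise of 1.13 on the log2 scale (SE 0.068, adjusted p = 1.13e-13). The rises were 1.07 for RQ, 1.00 for S181E and 0.96 for Y396E, and none of the responses was called as different from WT (adjusted p = 0.999, 0.331 and 0.174). In control cells ADM was higher in Y396E, at 72.5, 63.8 and 57.5 CPM, than in WT (log2 0.35, SE 0.069, adjusted p = 0.000235). Without Y396E control replicate 1, the highest of these, the difference was 0.256 and under the fold threshold. S181E control libraries held 62.5, 62.6 and 54.8 CPM, 0.24 above WT, which was under the fold threshold. The difference was called with totals scaling (0.40) and without S181E control replicate 3 (0.30).

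SLC2A1 encodes the glucose transporter GLUT1, the entry point for glucose. It fell with arsenite in WT and RQ and stood higher in the glutamate populations throughout. The WT control libraries held 126.2, 128.8 and 126.4 CPM and the WT arsenite libraries 101.9, 92.5 and 95.6 CPM, a fall of 0.40 on the log2 scale (SE 0.072, adjusted p = 2.06e-05). Scaling by totals alone left a fall of 0.24 that was not called. RQ fell from 157.2, 156.4 and 125.3 CPM to 114.6, 107.2 and 103.6 CPM (log2 -0.43, SE 0.072, adjusted p = 5.82e-06).

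S181E cells held 203.6, 193.5 and 182.3 CPM of SLC2A1 in control and 171.4, 170.6 and 171.6 CPM in arsenite. Y396E cells held 188.8, 190.4 and 181.2 CPM in control and 177.6, 169.0 and 204.2 CPM in arsenite. Every S181E and Y396E library lay above every WT library. In control the difference from WT was 0.60 in S181E (SE 0.071, adjusted p = 2.61e-07) and 0.56 in Y396E (SE 0.071, adjusted p = 1.05e-06). In arsenite it was 0.83 in S181E (SE 0.072, adjusted p = 2.41e-09) and 0.93 in Y396E (SE 0.072, adjusted p = 2.57e-10), which is 1.77 and 1.90 times the WT level. The arsenite response of Y396E exceeded that of WT by 0.37 (SE 0.10, adjusted p = 0.0105), and that of S181E by 0.22, which was not called (95% interval 0.02 to 0.43, adjusted p = 0.122). RQ control cells were 0.20 above WT (adjusted p = 0.163), a difference that was called at 0.30 without RQ control replicate 3 (adjusted p = 0.0139).

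HK2, the hexokinase that phosphorylates glucose at the mitochondrial surface, had the largest rise among the members in WT cells. WT libraries went from 16.6, 12.6 and 16.1 CPM to 40.5, 38.8 and 40.3 CPM, a 2.63-fold rise (log2 1.39, SE 0.098, adjusted p = 2.33e-12). RQ rose by 1.42 on the log2 scale, Y396E by 1.06 and S181E by 0.84 (adjusted p = 1.84e-12, 3.69e-10 and 1.99e-08). All 12 arsenite libraries of the engineered cells held 37.5 to 46.2 CPM, and the arsenite difference from WT was 0.06 in S181E (adjusted p = 0.701) and 0.09 in Y396E (adjusted p = 0.484). S181E control libraries held 22.1, 23.3 and 24.3 CPM and Y396E control libraries 17.97, 19.3 and 23.5 CPM, all above the WT control libraries. The control difference from WT was 0.62 in S181E (SE 0.099, adjusted p = 2.04e-05) and 0.42 in Y396E (SE 0.10, adjusted p = 0.00157).

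The arsenite response of HK2 was smaller in S181E than in WT by 0.56 on the log2 scale (SE 0.14, adjusted p = 0.00699), a call that was lost only with the fold threshold at 1.5 among the 32 settings tried. For Y396E the difference of -0.33 was not called (adjusted p = 0.071). It was called under the replicate block (-0.33, adjusted p = 0.0274), with scaling by totals (-0.43), and without WT control replicate 1 (-0.41), Y396E control replicate 1 (-0.41) or Y396E arsenite replicate 3 (-0.40).

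PFKFB3 makes fructose 2,6-bisphosphate, the strongest activator of phosphofructokinase, and it fell with arsenite in all 4 populations. WT libraries went from 99.6, 94.1 and 104.3 CPM to 81.2, 73.7 and 76.6 CPM (log2 -0.37, SE 0.060, adjusted p = 5.12e-06). S181E libraries went from 100.4, 93.1 and 105.9 CPM to 69.0, 65.9 and 69.1 CPM (-0.55, SE 0.061, adjusted p = 1.08e-08). The falls were -0.50 in Y396E and -0.34 in RQ, and no library overlapped in any population. With totals scaling the difference was -0.21 in WT and -0.18 in RQ, neither called. No control difference from WT was called.

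LDHA, the lactate dehydrogenase subunit that favours lactate formation, was by length the most abundant member in WT control cells. WT libraries rose from 666.0, 616.5 and 737.1 CPM to 951.0, 934.8 and 930.4 CPM (log2 0.48, SE 0.057, adjusted p = 3.4e-08), and RQ rose by 0.54 (SE 0.057, adjusted p = 4.22e-09). S181E control cells already held 897.6, 875.6 and 849.4 CPM, and rose by 0.27 with arsenite (SE 0.057, adjusted p = 0.000183). That rise fell under the fold threshold without S181E arsenite replicate 2 (0.260) or S181E control replicate 3 (0.25). Its call was also lost with no CPM filter and with a filter of CPM above 1 in at least 3 libraries. Y396E control cells held 828.2, 872.7 and 955.3 CPM and differed by 0.22 after arsenite, under the fold threshold (adjusted p = 0.00105). Without Y396E control replicate 3 it was 0.28 and called, and it was also called with totals scaling. The control differences from WT were 0.38 in S181E (SE 0.057, adjusted p = 8.98e-06) and 0.40 in Y396E (SE 0.057, adjusted p = 5.55e-06), with no overlap. The response differed from WT by -0.21 in S181E and -0.26 in Y396E, neither called. Without WT control replicate 3 both were called, at -0.28 and -0.33. Both were also called with totals scaling, at -0.32 and -0.36. The Y396E difference was called as well without Y396E control replicate 1 or 2 or Y396E arsenite replicate 2.

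PDK1 encodes a kinase that shuts off pyruvate dehydrogenase, and it moved little. WT libraries held 15.1, 13.6 and 16.4 CPM in control and 19.9, 16.4 and 19.1 CPM in arsenite, a rise of 0.29 (SE 0.12, adjusted p = 0.0312). The lowest arsenite and highest control libraries both read 16.4 CPM. The call was lost without WT control replicate 1 or 2 or WT arsenite replicate 1 or 3, with adjusted p from 0.0629 to 0.126. It was also lost with no CPM filter and with a filter of CPM above 1 in at least 3 libraries. In Y396E arsenite cells PDK1 was at 13.5, 15.7 and 9.86 CPM, and the lowest value came from replicate 3, the library with the fewest detected genes. These cells were 0.50 below WT (SE 0.12, adjusted p = 0.00263), a call that was lost when only the 2 groups compared were fitted (adjusted p = 0.104). Without Y396E arsenite replicate 3 they were 0.32 below WT on the log2 scale (adjusted p = 0.00894). The arsenite difference within Y396E was -0.13 with that library and 0.04 without it.

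BNIP3, a mitochondrial receptor for mitophagy, fell with arsenite in WT from 38.7, 47.7 and 52.4 CPM to 36.0, 31.4 and 34.1 CPM (log2 -0.45, SE 0.099, adjusted p = 0.000206). In RQ it fell by 0.27 (SE 0.10, adjusted p = 0.0168), with libraries that overlapped, and the call was lost with totals scaling (-0.10) and without RQ control replicate 2 or RQ arsenite replicate 2 or 3 (adjusted p from 0.0572 to 0.098). S181E libraries went from 39.3, 40.6 and 39.0 CPM to 32.9, 34.1 and 35.3 CPM, a difference of -0.21 with an adjusted p of 0.055. Y396E differed by -0.20 (adjusted p = 0.0739) and was called without Y396E control replicate 1 (-0.27) or Y396E arsenite replicate 3 (-0.27). No difference from WT was called in the fit of all libraries. Without WT control replicate 1, the lowest WT control library, S181E control cells were called lower than WT (-0.34, adjusted p = 0.00715) and the arsenite response of Y396E was called different from that of WT (0.37, adjusted p = 0.0411).

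CA9, the carbonic anhydrase often used as a marker of hypoxic tumour cells, was close to absent. It had between 0 and 15 reads per library, at most 0.31 CPM, in control and arsenite cells of every population, the parental cells included. At this depth no arsenite difference was tested.

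The counts in the lists of related genes below stand beside the shares of all tested genes that were called. These were 36.3% higher and 35.9% lower for arsenite in WT, 15.7% and 15.4% for S181E against WT in control cells and 14.5% and 14.2% for Y396E.

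Among the regulators of the pathway, HIF1A rose with arsenite in WT cells from a mean of 46.9 to 114.2 CPM (log2 1.28, SE 0.068, adjusted p = 9.81e-15). EPAS1, which encodes HIF-2 alpha, rose by 0.91 and ARNT by 0.48, while VHL fell by 0.91 (SE 0.049, adjusted p = 1.36e-14). EGLN1 differed by -0.05 (adjusted p = 0.65), a value that was 0.11 with totals scaling and 0.01 without WT arsenite replicate 1. EGLN2 and EGLN3 did not pass the filter. Of 15 regulators listed, 11 were tested, and in WT 5 rose and 4 fell, with a median of -0.05 beside -0.01 for all genes. Totals scaling put that median at 0.11, where all genes were at 0.15. In S181E control cells HIF1A was 0.42 above WT (SE 0.068, adjusted p = 2.35e-05) and in Y396E control cells 0.47 above it (adjusted p = 6.3e-06), and its arsenite response was smaller in S181E by 0.42 (SE 0.094, adjusted p = 0.00419). All these values are RNA levels, and the oxygen-regulated step acts on the protein, which was not measured here.

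Other hypoxia target genes did not move one way. Of 26 listed, 19 were tested, and in WT 8 rose and 8 fell with arsenite (16 called of 19, where 72.2% of all genes were), with a median log2 difference of -0.12 beside -0.01 for all genes. DDIT4, an inhibitor of mTORC1 signalling, rose 5.69-fold (log2 2.51, SE 0.099), KDM3A, a histone demethylase, 4.19-fold and RIOK3, a kinase, by 1.47 on the log2 scale. INSIG2, a brake on sterol synthesis, fell by 1.71 on the log2 scale, ERO1A, an oxidase of the endoplasmic reticulum, by 0.93 and STC2, a secreted glycoprotein, by 0.77. In S181E control cells 1 of the 19 was higher than in WT and 6 were lower (31.1% of all genes were called), with a median of -0.07 beside 0.02, among them NDRG1 (-0.58, and -0.37 without WT control replicate 3), BNIP3L, a relative of BNIP3 (-0.48), and P4HA1, a collagen prolyl hydroxylase subunit (-0.45). In Y396E control cells none was higher and 5 were lower (28.6%). With totals scaling 4 were higher and 5 lower in S181E, and 4 and 2 in Y396E, so the direction of this list depended on the scaling. In RQ the arsenite response of 2 of the 19 was called different from that of WT, where 0.22% of all genes were, and both are named here after their values were seen. DDIT4 rose to 241 to 314.8 CPM in RQ arsenite cells against 92.5 to 107.1 CPM in WT, a difference between responses of 1.36 (SE 0.14, adjusted p = 4.89e-06). STC2, which fell in WT, stood at 125.1 to 149.1 CPM in RQ control and 142.9 to 156.1 CPM in RQ arsenite cells (log2 0.11, not called), and its response differed from that of WT by 0.88 (SE 0.11, adjusted p = 7.56e-05).

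Glycolysis and lactate genes mostly rose. Of 21 listed, 19 were tested, and with arsenite in WT 13 rose and 2 fell, with a median of 0.66 beside -0.01 for all tested genes. The largest rises were in HK1, the housekeeping hexokinase (1.74, SE 0.12), PFKM, the muscle phosphofructokinase (1.55), and PKM, pyruvate kinase (1.39). SLC16A3, a lactate exporter, fell by 0.48 and PFKFB2, a relative of PFKFB3, by 0.41, the latter not called at -0.25 with totals scaling. In S181E, Y396E and RQ 13 rose and 1 fell in each, where 65.3%, 65.8% and 72.9% of all genes were called. In control cells 11 were higher and 1 lower in S181E than in WT, and 10 higher and 1 lower in Y396E, with medians of 0.28 and 0.34 beside 0.02 for all genes and 31.1% and 28.6% of all genes called. HK1 was 0.83 higher in S181E control cells (SE 0.12, adjusted p = 4.45e-06), PFKM 0.55 and PKM 0.50, and ALDOC, an aldolase, was 1.13 lower (SE 0.14, adjusted p = 4.68e-07).

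Genes of pyruvate entry into mitochondria were split. Of 11 tested out of 12, 4 rose and 3 fell with arsenite in WT (median -0.003). DLD and PDHA1, subunits of the pyruvate dehydrogenase complex, rose by 0.77 and 0.65, while MPC1 and MPC2, the mitochondrial pyruvate carrier, fell by 0.68 and 0.45. In S181E control cells 3 were higher and none lower, PDK3 (0.58), PDHA1 (0.42) and DLD (0.27), of which PDK3 was not called without WT control replicate 2 (adjusted p = 0.0719) and DLD not called without S181E control replicate 1 or WT control replicate 2. Of the PPAR and fatty acid genes, which include the factors known to act on ANGPTL4, 8 of 12 were tested. In WT 5 rose and 2 fell with arsenite (median 0.51 beside -0.01 for all genes), with HADHA at 1.39, CPT1A at 1.27 and ACADVL at 0.74, all enzymes of fatty acid oxidation, and with PPARD at -0.61 and PPARG at -0.47. In S181E control cells 3 of the 8 were higher and none lower, beside 15.7% and 15.4% of all genes, namely ACSL1 (0.60), CPT1A (0.58) and PLIN2 (0.36). Of 13 genes listed as relatives, receptors or partners of VEGFA, ADM and ANGPTL4, only 3 were tested. With arsenite in WT PGF rose by 0.77, while VEGFB fell by 0.57 and RAMP1 by 0.99.

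**Figure D4:**
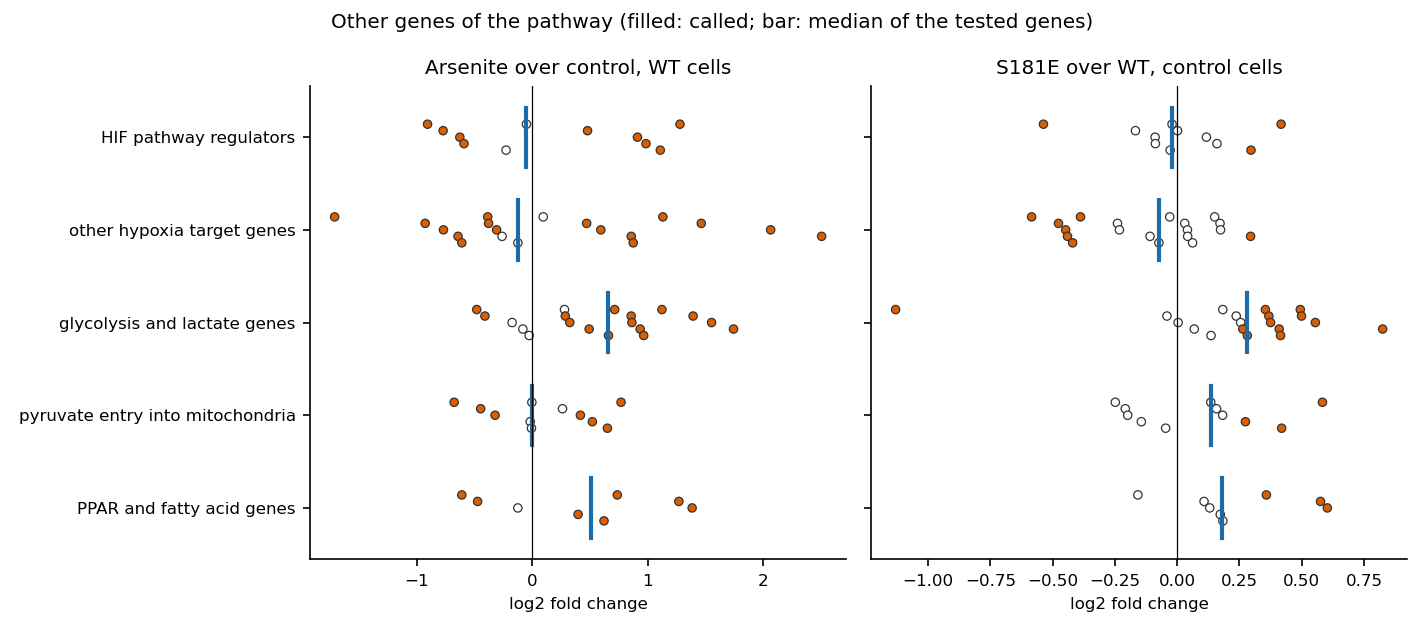
Log2 fold change of each tested gene in 5 lists around the members, for arsenite over control in WT cells (left) and S181E over WT in control cells (right). Each point is a gene, filled where called, and the bar is the median of the list. The glycolysis and lactate genes have medians of 0.66 and 0.28, and the other hypoxia target genes -0.12 and -0.07.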

How the data were processed

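Poly(A) RNA libraries of HCT116 cells were analysed from the deposited whole-number counts per gene, which the authors made by aligning trimmed reads to hg38 with STAR (2.7.11b) and counting with featureCounts (2.0.6, strand setting 2, GENCODE 46) and did not normalize. Symbols came from GENCODE 44, which matched 99.1% of the identifiers. Immunoprecipitated RNA was not analysed here.

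Genes were tested in R 4.3.3 with edgeR 4.0.16 (TMM, quasi-likelihood F test, Benjamini-Hochberg adjustment) on 9099 protein-coding genes above 10 CPM in at least 12 of 24 engineered libraries, with 8 group means and 16 residual degrees of freedom. Parental cells, with 1 library per condition, were not fitted. A call needed an adjusted p below 0.05 and a fold change above 1.2, as in the study's methods. SEs were derived from the F statistic. The pipeline was tested on simulated counts. The common biological coefficient of variation was 0.0682 and the median SE of a 2-group log2 difference 0.078. No library pair held identical counts, and replicates differed by a chi-square of 2.96 to 70.3 per gene, above counting noise.

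The members, lists and comparisons were chosen with earlier results of these data known. Named from each list were up to 3 called genes with the largest rise and up to 3 with the largest fall in arsenite in WT, S181E minus WT in control and the arsenite response of S181E minus that of WT, beside all members and 7 regulators. In the other hypoxia target genes and in the PPAR and fatty acid genes, 1 gene each is not reported here and was left out of the list's counts and medians, whatever its values. Groups and replicate numbers came from the sample labels. Replicate numbers paired the samples of RQ and WT only, from the data: deviations from group means of same-numbered libraries correlated at 0.291, 0.525 and 0.472 in control and 0.148, 0.147 and 0.15 in arsenite. Alternatives were RLE scaling, library totals, DESeq2 1.42.0, 2 other filters on low counts, fits of only the groups compared, a replicate block, a fold threshold of 1.5 and leaving out each of 24 libraries. Promoters came from RefSeq.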

Additional observations from a re-analysis of the deposited data

Results flagged for a closer look

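Each result below differed between populations by the test of the arsenite response of a mutant population minus that of WT (edgeR quasi-likelihood test, Benjamini-Hochberg adjusted over all tested genes). Among the members, VEGFA responded more in RQ than in WT by 0.43 on the log2 scale (SE 0.091, adjusted p = 0.0388), and the adjusted p ran from 0.00324 to 0.263 over 32 alternatives. SLC2A1 fell with arsenite in WT and differed by -0.02 in Y396E, which was not called, and the difference between these responses was 0.37 (SE 0.10, adjusted p = 0.0105). HK2 rose less in S181E than in WT, by a difference of -0.56 (SE 0.14, adjusted p = 0.00699).

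For RQ against WT, DDIT4 and STC2, other hypoxia target genes, differed in response by 1.36 and 0.88, in each of the 32 alternatives as well. The other genes concern S181E against WT, where 16.4% of all tested genes were called. List genes were named from that response and not from that of Y396E (21.5%), so they are not shown to be particular to S181E. Y396E had 3 of 11 regulators, 4 of 19 other hypoxia targets, 4 of 19 glycolysis genes and 3 of 11 pyruvate genes called. For S181E the same counts were 2, 2, 4 and 3. HIF1A rose less in S181E, by -0.42 (adjusted p = 0.00419), and KDM3A by -0.35 (adjusted p = 0.0388, lost in 12 of 32 alternatives). INSIG2 fell less in S181E, by 0.65, and so did RAMP1, by 0.48. Of the glycolysis and lactate genes, PFKM rose less by -0.47, PKM by -0.31 (lost in 19 of 32 alternatives, and -0.19 without WT control replicate 2) and LDHB by -0.29 (lost in 20), and SLC16A3, which fell in WT and was not called in S181E, differed by 0.38 (lost in 11). DLAT, PDHA1 and DLD, subunits of the pyruvate dehydrogenase complex, differed by -0.32, -0.30 and -0.30. Groups of 3 libraries are too small for a test of single outlying samples.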

How the results depend on the processing

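Over 32 alternatives, 435 of the 480 counts of called members stayed within 1.5 times the reported count, and none of the calls of a member turned direction. A fold threshold of 1.5 left 2 members called for arsenite in WT, 2 in S181E and 3 in RQ, 1 for S181E minus WT and 1 for Y396E minus WT in arsenite, and 0 for Y396E minus WT in control, for RQ minus WT in arsenite and for each of the 3 differences between responses. Scaling by library totals gave 4 called members for the response of S181E minus WT, 6 for Y396E and 0 for RQ, where the median of all genes moved to -0.143, -0.123 and 0.012. These counts, and those of the next paragraph, stand without the share of all tested genes called under the same setting. For the 3 responses that share was 16.4%, 21.5% and 0.22% in the main fit. They describe the settings and are not read as results about the members. Totals scaling moved the median of all genes for arsenite to 0.148 for WT and 0.159 for RQ. It moved the portion of calls with a rise from 50.3% to 61.6% and from 50.9% to 62.0%. That portion moved from 42.6% to 13.0% and from 48.1% to 18.2% for the responses of S181E and Y396E, from 38.7% to 55.9% for S181E minus WT in arsenite, and for RQ minus WT from 70.0% to 38.3% in control and from 89.9% to 77.7% in arsenite.

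With the replicate block, 2 members were called for the response of Y396E minus WT and 0 for that of RQ. It changed no other call of a member. RLE scaling and both other filters also left 0 for RQ. Leaving out 1 library gave 0 to 1 for RQ minus WT in control, 1 to 2, 1 to 4 and 0 to 1 for the responses of S181E, Y396E and RQ, and 0 to 1 for Y396E minus S181E in arsenite, where PDK1 was called without Y396E arsenite replicate 2 (-0.51, adjusted p = 0.0268).

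The reversed values were small and not called. SLC2A1 in Y396E with arsenite was 0.0335 with totals and -0.1067 to 0.0326 over the fits without 1 library, VEGFA there -0.0143 to 0.1117 and PDK1 there -0.2971 to 0.0445, and ANGPTL4 for RQ minus WT in arsenite, not tested, was -0.1807 to 0.0517. EGLN1 in WT with arsenite was 0.11 with totals and -0.0982 to 0.0127 without 1 library. The causes were not tested. The SE of a member's 2-group log2 difference was 0.0568 to 0.14, which limits the differences that could be called, and the low counts of CA9 allowed no test.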
